A study of Mus musculus with 12 samples.

Results

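The genes described here are 33 mouse genes of MHC and antigen presentation, chosen by name: class I and class Ib heavy chains, their light chain, the peptide transport and loading machinery, the immunoproteasome, class II chains and their helpers, and 3 transcription regulators. Of these 33 genes, 30 had a probe on the array and 28 were tested, out of 14444 genes tested and 21367 genes with a probe. H2-Q6, H2-T22 and Psme2 had no probe paired with them. H2-Aa and Ciita had a probe that was well above background on 0 of 12 arrays. The cells were MEFs, fibroblasts cultured from C57BL/6 mouse embryos at E12.5 to E13.5. All 4 groups carried at least 1 viral vector, and no untransduced cells were among the 12 arrays. The shp53 cells carried a short hairpin RNA against the mouse p53 mRNA, and the RASV12 cells carried an oncogenic form of RAS. The shp53-first cells received shp53 and then RASV12, and the RASV12-first cells received RASV12 and then shp53. Each group had 3 arrays, described in the design text as independent biological replicates, and p-values measure only the spread between these arrays, which may be technical. The title of the series names a contrast of 2 kinds of transformed cell, those that had passed through senescence and those that had not. The promoters that drive the vectors, the selection of transduced cells and the days between the vectors are not given in the sources used here.

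Class I molecules present peptides made in the cytosol to CD8 T cells. Proteins are cut by the proteasome, whose immunoproteasome form carries exchanged catalytic subunits, and the peptides are pumped into the endoplasmic reticulum by the TAP transporter, trimmed, and loaded onto a heavy chain paired with B2m. Fibroblasts keep class I at a modest level and raise it after interferon. NLRC5 is the class I transactivator and CIITA its class II counterpart. Class II molecules, which present peptides taken up from outside to CD4 T cells, are mainly a property of dendritic cells, B cells and macrophages.

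Of the 33 genes, 20 lie on chromosome 17 in the RefSeq table (GRCm38.p6), among them a run in which H2-DMb1, Psmb9, Tap1, Psmb8 and Tap2 follow each other. RefSeq promoter windows, from 250 bases before to 50 bases after the annotated start, were matched for 24 of the 33 genes. The motifs were searched on both strands. Counts for the 24 genes rest on the first listed window of each gene, while the share of all windows includes every listed window. The kB-type site, a pattern bound by NF-kB factors, is GGG and CCC with any 4 bases between them. It was present in the windows of 9 of the 24 genes and in 11.9% of all 32851 windows. The 9 were H2-Aa, H2-D1, H2-K1, H2-Q4, H2-Q6, H2-Q7, Irf1, Pdia3 and Psme2. Stretches of H2-K1, H2-D1 and H2-Q7 are alike (84.4% to 90.8% identical, given below), so their matches are not separate observations. The interferon response element core, GAAA and GAAA with any 2 bases between them, a pattern bound by interferon regulatory factors, was present for 5 of the 24 genes, namely B2m, Erap1, H2-T22, H2-T23 and Psme1, and in 3.44% of all windows. CCAAT, the pattern bound by NF-Y, was present for 18 of the 24 genes and in 37.4% of all windows. H2-DMa, not among the 18, held CCAAT in a further window only. A match is a description of letters and not a binding site. Only exact matches to these letters were counted, so the lack of a match does not show that an element is absent. The sequences below are shown because these genes of the class I pathway rose against shp53 cells in both groups with 2 vectors. H2-K1, H2-D1 and H2-Q7 hold the kB-type site, and B2m and H2-T23 the interferon core. They are printed 5′ to 3′ on the strand of the gene, with motif matches in capitals. In H2-K1 and H2-D1 a pair of kB-type matches overlaps by all but 1 base, so they share 1 run of capitals.
H2-K1 (GRCm38.p6, chr17:34000357-34000476, minus strand): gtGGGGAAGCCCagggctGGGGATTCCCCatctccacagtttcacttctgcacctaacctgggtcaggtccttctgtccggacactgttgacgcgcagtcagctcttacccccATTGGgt
H2-D1 (GRCm38.p6, chr17:35262905-35263024, plus strand): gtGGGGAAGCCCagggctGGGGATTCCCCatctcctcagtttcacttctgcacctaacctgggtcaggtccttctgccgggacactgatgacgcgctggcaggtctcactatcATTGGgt
H2-Q7 (GRCm38.p6, chr17:35439004-35439123, plus strand): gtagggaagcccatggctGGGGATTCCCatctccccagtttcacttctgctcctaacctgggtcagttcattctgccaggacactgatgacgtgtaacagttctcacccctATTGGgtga
B2m (GRCm38.p6, chr2:122147537-122147656, plus strand): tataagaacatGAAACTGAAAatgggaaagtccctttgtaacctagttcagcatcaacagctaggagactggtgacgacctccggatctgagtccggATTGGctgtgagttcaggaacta
H2-T23 (GRCm38.p6, chr17:36032732-36032851, minus strand): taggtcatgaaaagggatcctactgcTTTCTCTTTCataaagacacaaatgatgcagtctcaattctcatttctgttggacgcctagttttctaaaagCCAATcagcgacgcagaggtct
Tap1 (GRCm38.p6, chr17:34187331-34187555, plus strand): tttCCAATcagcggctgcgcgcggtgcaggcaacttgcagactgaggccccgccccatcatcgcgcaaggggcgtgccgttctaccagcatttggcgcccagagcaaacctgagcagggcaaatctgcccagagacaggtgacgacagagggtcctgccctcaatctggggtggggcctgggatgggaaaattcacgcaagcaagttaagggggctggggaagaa

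The H2-K1 and H2-D1 stretches were identical at 109 of 120 aligned positions (90.8%), and each was identical to H2-Q7 at 103 of 122 aligned columns (84.4%). The Tap1 stretch is the whole of the 225 bases between the starts of Tap1 and Psmb9, which are transcribed from opposite strands, so both genes share it. The windows of Tap1 and Psmb9 held CCAAT and neither of the other motifs. No window was matched for H2-Q5, H2-T24, Cd1d1, Tap2, Tapbpl, H2-Ab1, Cd74, Nlrc5 and Ciita.

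**Figure D1:**
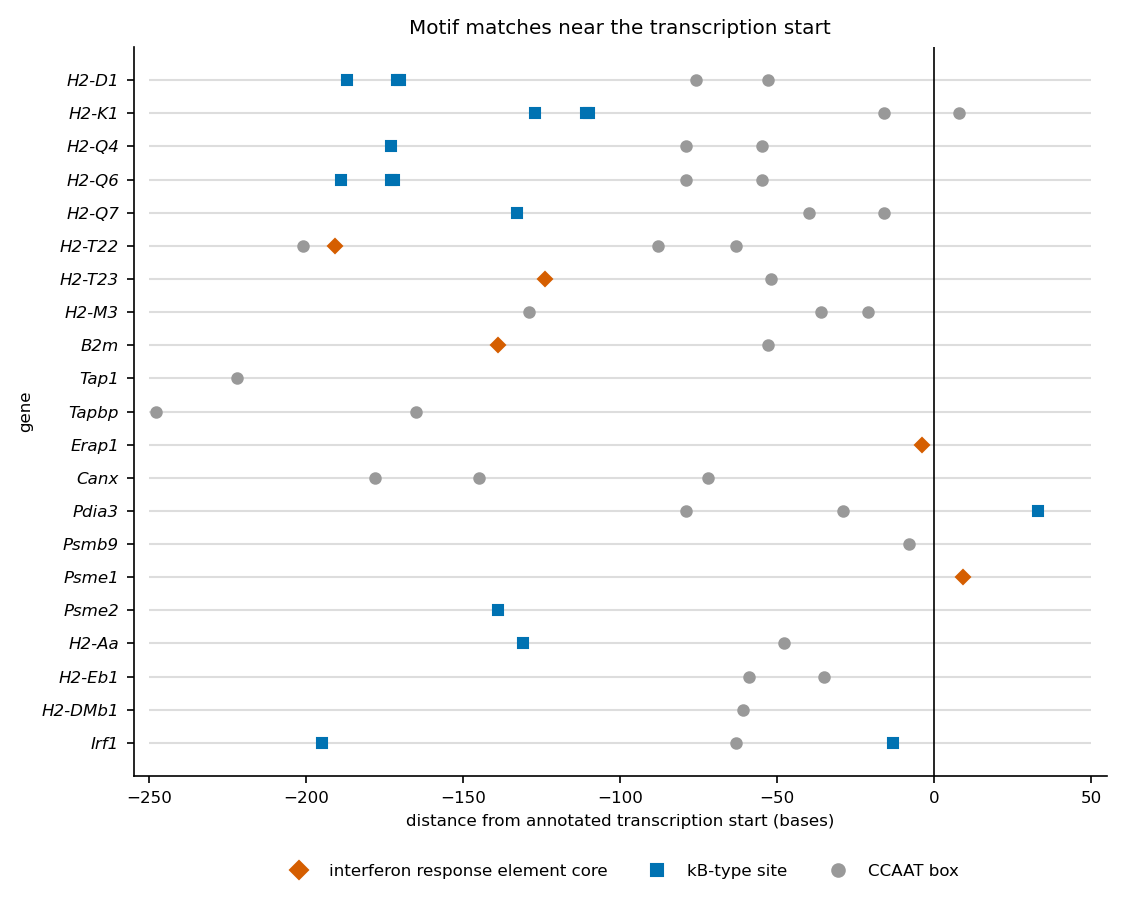
Motif matches in RefSeq promoter windows, by distance in bases from the annotated start, for the antigen presentation genes with at least 1 match in their first listed window; orange diamonds are the interferon response element core, blue squares the kB-type site and grey circles CCAAT. The kB-type matches of H2-D1, H2-K1, H2-Q4, H2-Q6 and H2-Q7 lie upstream of their CCAAT matches, and the overlapping pair at -111 and -110 in H2-K1 appears as a widened square.

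Between 56.6% and 62.4% of the 43020 non-control spots of an array were well above background. In each group 1 array stood apart from a close pair: replicate 2 of shp53 and of RASV12, and replicate 1 of both groups with 2 vectors. The correlation across genes was 0.993 to 0.998 for the close pair of a group and 0.967 to 0.981 for its remaining pairs. Whether the arrays of a close pair came from separate cultures cannot be told from the values, and averaging each close pair, an alternative chosen after seeing the data, ended 48 of the 79 calls described below. Trp53, the target of the hairpin, read from -0.75 to -0.35 on the RASV12 arrays and from -4.14 to -3.06 on the 9 arrays of cells with shp53, in log2 units relative to the array's 75th percentile. All 10 fibroblast markers were well above background on all 12 arrays. The 15 macrophage and leukocyte markers summed, on the linear scale with the 75th percentile as 1, to 123 on shp53 replicates 1 and 3 and to 13.4 on replicate 2. On the other 9 arrays their sum ranged from 5.80 to 20.7, with 5 to 13 of the 15 well above background. All 15 were well above background on each shp53 array. Their median log2 value was 2.48, -1.42 and 2.55 on shp53 replicates 1 to 3 and from -7.86 to -3.03 on the other 9. In bulk RNA, fewer cells of a type and less RNA per cell cannot be told apart. Among dendritic and B cell markers, Zbtb46 was well above background on 7 arrays, Itgax and Spi1 on 2 each, Flt3 on 1, and Xcr1, Cd79a, Cd79b and Ms4a1 on 0.

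Class I heavy chains, Tap1, Psmb8, Psmb9 and Nlrc5 read higher on every array of the groups with 2 vectors than on any array of the groups with 1 vector. Against shp53 cells, 14 of the 28 genes rose and 2 fell in shp53-first cells (limma, adjusted p under 0.05), where 17.3% and 20.3% of all genes tested rose and fell. In RASV12-first cells 14 rose and 4 fell against shp53 cells, with 21.7% and 23.8% of all genes. Against RASV12 cells, 13 rose and 2 fell in shp53-first cells (10.2% and 15.1% of all genes), and 12 rose and 5 fell in RASV12-first cells (17.2% and 21.7% of all genes). RASV12 cells had 7 of the 28 genes higher and 4 lower than shp53 cells, with 14.3% and 12.8% of all genes. The comparisons share groups, so their counts are not independent. The shares of all genes belong to this fit alone. Those under the alternatives that follow are not given here, so the counts there cannot be set against all genes. Without the 4 arrays that stood apart, an alternative chosen after seeing the data, the counts higher and lower in these comparisons were 16 and 4, 16 and 6, 18 and 6, 17 and 6, and 7 and 10. With the close pairs averaged they were 9 and 0, 10 and 2, 2 and 0, 4 and 2, and 2 and 0. With normexp background correction in place of the scanner's, they were 6 and 0, 6 and 0, 3 and 0, 5 and 1, and 1 and 0. Normexp ended all calls of 15 of the 24 genes called in any comparison, namely B2m, Cd1d1, Cd74, Erap1, H2-Ab1, H2-DMb1, H2-Eb1, H2-M3, H2-Q4, H2-T23, Irf1, Psme1, Tap2, Tapbp and Tapbpl.

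The median log2 difference of the 28 genes was 0.54 in shp53-first against shp53 cells, 0.75 in RASV12-first against shp53 cells, 0.77 in shp53-first against RASV12 cells and 0.55 in RASV12-first against RASV12 cells. The same medians over all genes tested were 0.03, 0.02, -0.05 and -0.07. In 10 of the 28 genes all 6 arrays of the 2-vector groups lay above all 6 arrays of the 1-vector groups, which 6.74% of all genes did. These were H2-D1, H2-K1, H2-Q5, H2-Q7, H2-T23, H2-M3, Tap1, Psmb8, Psmb9 and Nlrc5. H2 paralogs among them can share probe signal and may not count as separate observations. Canx alone had all 6 below, against 8.76% of all genes. The RASV12-first cells had the highest group mean for 12 of the 28 genes, the shp53-first cells for 8, RASV12 cells for 6 and shp53 cells for 2. Such counts over all genes are not given here, so these cannot be set against all genes.

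With array median scaling the split of calls was 8 higher and 2 lower in RASV12 against shp53 cells, 15 and 3 in RASV12-first against RASV12 cells, and 15 and 2 in RASV12-first against shp53 cells. Leaving out RASV12 replicate 3 took the calls in RASV12 against shp53 cells from 11 to 7. In shp53-first against RASV12 cells it took them from 15 to 8, while leaving out RASV12 replicate 1 gave 7, shp53-first replicate 2 gave 8 and shp53-first replicate 3 gave 9.

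**Figure D2:**
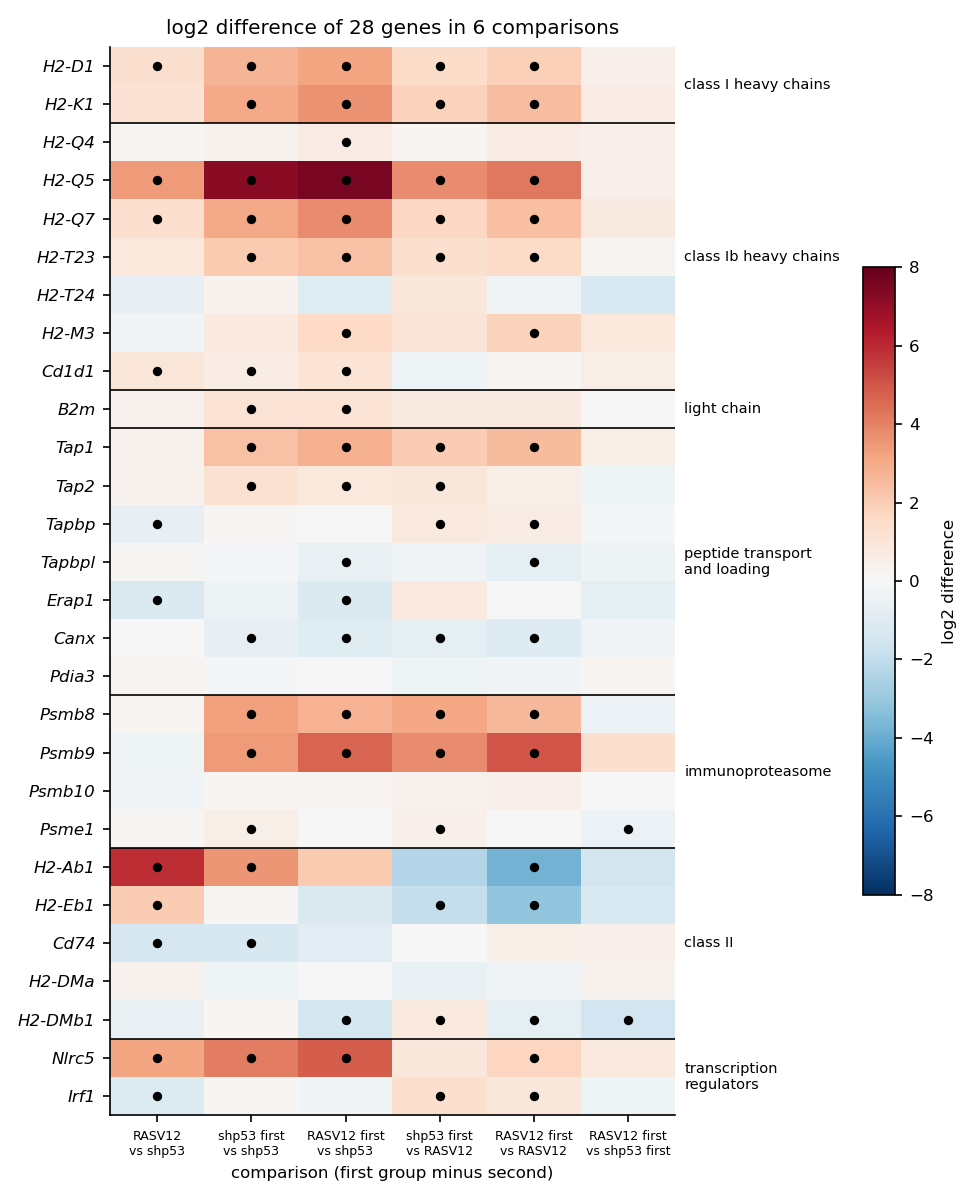
Log2 difference (colour, first group minus second) of the 28 tested antigen presentation genes, grouped by role, in 6 comparisons; a dot marks a limma adjusted p under 0.05. H2-Q5 holds the strongest red at 7.61 in RASV12-first against shp53 cells, H2-Ab1 and H2-Eb1 are red in RASV12 against shp53 cells and blue in RASV12-first against RASV12 cells, and the last column, RASV12-first against shp53-first, holds 2 dots.

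Both classical class I heavy chains of this strain, H2-K1 and H2-D1, which carry peptide to CD8 T cells, rose in the 2-vector groups against both 1-vector groups. H2-K1 read from 2.41 to 4.11 on the shp53 arrays, from 4.29 to 5.28 in RASV12, from 6.47 to 6.58 in shp53-first and from 6.83 to 7.38 in RASV12-first cells. The 4 groups did not overlap, and the lowest value was shp53 replicate 2. H2-K1 rose by 3.0 ± 0.42 log2 units (standard error) in shp53-first against shp53 cells (8.01-fold, limma, adjusted p = 0.000398) and by 2.44 ± 0.42 in RASV12-first against RASV12 cells (5.42-fold, adjusted p = 0.00143). A second H2-K1 probe gave 2.68 and 1.88 for these comparisons. The difference of 1.13 between RASV12 and shp53 cells was not called.

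H2-D1 ran from 1.64 to 3.08 in shp53, 3.48 to 4.49 in RASV12, 5.26 to 5.41 in shp53-first and 5.53 to 6.12 in RASV12-first cells, again without overlap. Its difference was 2.74 ± 0.39 in shp53-first against shp53 cells (limma, adjusted p = 0.000405) and 1.90 ± 0.39 in RASV12-first against RASV12 cells (adjusted p = 0.00349). RASV12 cells exceeded shp53 cells by 1.27 ± 0.39 (adjusted p = 0.0329). That call was lost with the replicate number as a block (adjusted p = 0.0527). It was also lost without shp53 replicate 2, with a difference of 0.80 (adjusted p = 0.0734), without RASV12 replicate 2, at 0.95 (adjusted p = 0.108), and without RASV12 replicate 3, at 1.41 (adjusted p = 0.055). H2-D1 lost its call in shp53-first against RASV12 cells without RASV12 replicate 1 (adjusted p = 0.0789) or 3 (0.0749) and without shp53-first replicate 2 (0.0519) or 3 (0.0528).

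H2-Q5, which RefSeq lists as a transcribed pseudogene of the class Ib Q region, had the largest difference of all 28 genes. It read -3.51, -4.13 and -3.46 on shp53 replicates 1 to 3, and -0.74, 0.58 and -0.74 on the RASV12 replicates. The shp53-first arrays read 3.34, 3.56 and 3.59, and the RASV12-first arrays 3.85, 3.97 and 3.91. The 4 groups lay apart, with shp53 lowest and RASV12-first highest. The probe was well above background on all 12 arrays. Against shp53 cells H2-Q5 was higher by 3.40 ± 0.33 in RASV12 cells (10.5-fold, limma, adjusted p = 4.97e-05), by 7.19 ± 0.33 in shp53-first cells (146-fold, adjusted p = 3.14e-07) and by 7.61 ± 0.33 in RASV12-first cells (195-fold, adjusted p = 1.01e-07). With normexp these H2-Q5 differences were 1.36 (adjusted p = 0.151, no longer called), 4.86 and 4.86. Near-identical class I paralogs can share probe signal, so the H2-Q5 reading may hold signal from other Q genes.

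Among the other class Ib genes, whose products present restricted sets of peptides or lipids, H2-Q7, a Qa-2 antigen gene, had the same order of groups as H2-K1 and H2-D1 and no overlap between them. Its arrays ran from 0.79 to 2.24 in shp53, 2.62 to 3.77 in RASV12, 4.54 to 4.85 in shp53-first and 5.24 to 5.70 in RASV12-first cells. The probes of H2-K1, H2-D1 and H2-Q7 may also share signal, so their matching orders may not be separate observations. H2-T23, which encodes the Qa-1 antigen, rose by 2.11 ± 0.41 in shp53-first cells (limma, adjusted p = 0.00297) and by 2.33 ± 0.41 in RASV12-first cells (adjusted p = 0.00122) against shp53 cells. H2-M3, which presents formylated peptides, rose in RASV12-first cells by 1.61 ± 0.46 against shp53 cells and 1.86 ± 0.46 against RASV12 cells (limma, adjusted p = 0.0163 and 0.0098). Without shp53 replicate 2 the first of these H2-M3 values was 1.26 (adjusted p = 0.0564).

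Cd1d1, which presents lipids to NKT cells, was lowest in shp53 cells. It read from -0.80 to -0.20 in shp53 cells, 0.17 to 0.54 in RASV12 cells, -0.13 to 0.19 in shp53-first cells and 0.32 to 0.70 in RASV12-first cells, and the RASV12 range overlapped those of both 2-vector groups. It rose by 0.94 ± 0.20 in RASV12 against shp53 cells (limma, adjusted p = 0.00521), and a second Cd1d1 probe gave 1.43. H2-Q4 read between 3.42 and 4.70 on all arrays and rose in RASV12-first against shp53 cells alone, by 0.66 ± 0.23 (adjusted p = 0.0394). The H2-Q4 call was lost with the replicate number as a block (adjusted p = 0.0511) and in 7 of the 12 fits that left out 1 array, among them those without RASV12-first replicate 1 (adjusted p = 0.0862) and without shp53 replicate 1 (0.125). H2-T24 stayed between -6.26 and -3.88 and was called in no comparison.

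B2m, the light chain of class I molecules, rose against shp53 cells in both 2-vector groups. It read from 5.50 to 6.07 in shp53, 5.86 to 6.88 in RASV12, 6.63 to 7.25 in shp53-first and 6.66 to 7.36 in RASV12-first cells, and the RASV12 range reached into those of both 2-vector groups. Its difference was 1.1 ± 0.31 in shp53-first and 1.09 ± 0.31 in RASV12-first cells against shp53 cells (limma, adjusted p = 0.0183 and 0.0152). Without shp53 replicate 2 these were 0.92 (adjusted p = 0.0585) and 0.91 (adjusted p = 0.0515), and without shp53-first replicate 3 the first was 0.95 (adjusted p = 0.0675). B2m was not called against RASV12 cells.

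**Figure D3:**
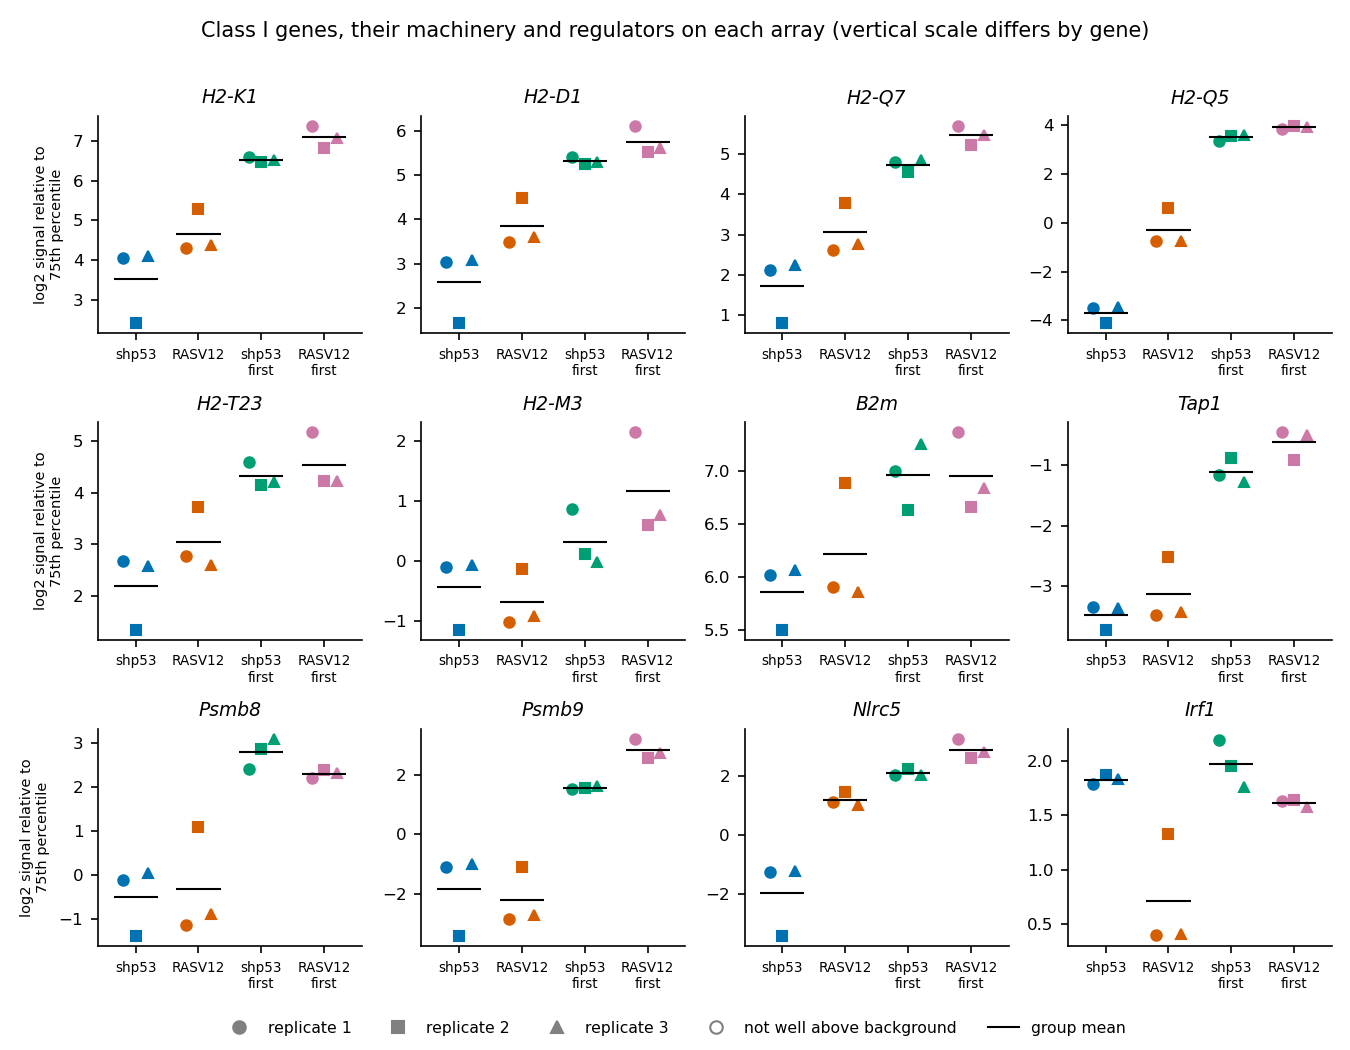
Scaled log2 signal (75th percentile of each array at 0) for 12 antigen presentation genes on the 12 arrays, by group; symbols are replicates, black lines group means, and vertical scales differ by gene. In all panels but those of B2m and Irf1 the 6 arrays of the 2-vector groups lie above the 6 of the 1-vector groups, and RASV12 replicate 2 (orange square) is the highest of its group throughout.

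Of the 7 transport and loading genes, the TAP subunits rose in both 2-vector groups against shp53 cells, and the chaperone calnexin fell. Tap1, a subunit of the peptide transporter, ran from -3.72 to -3.34 in shp53 and from -3.48 to -2.51 in RASV12 cells, and from -1.28 to -0.87 and -0.91 to -0.45 in shp53-first and RASV12-first cells. It rose by 2.37 ± 0.26 in shp53-first against shp53 cells (5.17-fold, limma, adjusted p = 7.86e-05) and by 2.52 ± 0.26 in RASV12-first against RASV12 cells (5.73-fold, adjusted p = 5.73e-05). Tap2, its partner subunit, rose by 1.21 ± 0.26 in shp53-first against shp53 cells (adjusted p = 0.00479) and by 0.84 ± 0.26 in RASV12-first against shp53 cells (adjusted p = 0.0237). The second Tap2 call was lost without shp53 replicate 2, at 0.61 (adjusted p = 0.0786), and without RASV12-first replicate 1, at 0.61 (adjusted p = 0.0683). The Tap1 calls against shp53 cells ended with normexp background correction, at 0.61 in shp53-first (adjusted p = 0.542) and 1.01 in RASV12-first cells (0.24).

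Canx, the lectin chaperone calnexin that binds new heavy chains, fell in both 2-vector groups. It read 4.74, 4.78 and 4.81 in shp53 cells and 4.77, 4.80 and 4.86 in RASV12 cells. The shp53-first arrays read 4.21, 4.11 and 3.99, and the RASV12-first arrays 3.85, 3.79 and 3.78. The 1-vector groups overlapped each other and lay above both 2-vector groups. Canx fell by 0.67 ± 0.11 in shp53-first against shp53 cells (limma, adjusted p = 0.00075), and by 1.0 ± 0.11 in RASV12-first against RASV12 cells (adjusted p = 6.52e-05).

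Erap1, the aminopeptidase that trims peptides in the endoplasmic reticulum, was dim. It read -3.19, -3.56 and -3.07 on the shp53 arrays and -4.39, -4.21 and -4.71 on the RASV12 arrays. The shp53-first values were -4.27, -3.44 and -3.31, and the RASV12-first values -4.86, -4.21 and -4.20. Erap1 was lower than in shp53 cells by -1.16 ± 0.28 in RASV12 and by -1.15 ± 0.28 in RASV12-first cells (limma, adjusted p = 0.0119 and 0.0077), and the first call ended without RASV12 replicate 3, at -1.03 (adjusted p = 0.0511). The second ended with quantile scaling (adjusted p = 0.0529 for Erap1) and with array median scaling (0.0540). With normexp the Erap1 differences were -1.58 (adjusted p = 0.201) and -0.26 (1.0), and with the close pairs averaged -1.03 (0.19) and -1.19 (0.0862). In shp53-first cells 1 array lay with the RASV12 arrays and 2 with the shp53 arrays.

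Tapbp, the bridge tapasin between TAP and class I, read 0.30 and 0.39 on RASV12 replicates 1 and 3 and between 1.08 and 1.49 on the other 10 arrays. Its 3 calls, all in comparisons with RASV12 cells, each ended without RASV12 replicate 1 or 3, and ended in 8, 9 and 4 of the 12 fits that left out 1 array for RASV12 against shp53, RASV12-first against RASV12 and shp53-first against RASV12 cells. In RASV12 against shp53 cells the Tapbp difference was -0.65 ± 0.21 (limma, adjusted p = 0.044) and did not have the same sign on all 3 slides, the only such call among the 79 calls of the 6 comparisons. Tapbpl, a peptide editor related to tapasin, was lower by -0.73 ± 0.23 in RASV12-first against RASV12 cells (adjusted p = 0.0269), a call that ended without RASV12-first replicate 1, at -0.51 (adjusted p = 0.0679), or 2 (0.0508) and without RASV12 replicate 1 (0.0881) or 3 (0.0990). With normexp this Tapbpl difference turned to 0.30 (adjusted p = 0.595). Pdia3, the disulfide isomerase of the loading complex, stayed between 3.64 and 4.33 and was called in no comparison.

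Of the immunoproteasome genes, the catalytic subunits Psmb8 and Psmb9 rose in both 2-vector groups, and the third catalytic subunit, Psmb10, was called nowhere. Psmb9 read -1.10, -3.42 and -1.0 on the shp53 arrays and -2.82, -1.08 and -2.69 on the RASV12 arrays. It read 1.51, 1.56 and 1.60 in shp53-first and 3.20, 2.57 and 2.71 in RASV12-first cells. The 1-vector groups overlapped, and the arrays that stood apart in them lay in opposite directions. Psmb9 rose by 3.39 ± 0.62 in shp53-first against shp53 cells (10.5-fold, limma, adjusted p = 0.002) and by 5.02 ± 0.62 in RASV12-first against RASV12 cells (32.5-fold, adjusted p = 0.000197).

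Psmb8 read -0.11, -1.39 and 0.04 in shp53 and -1.14, 1.09 and -0.89 in RASV12 cells. Its values were 2.40, 2.86 and 3.09 in shp53-first and 2.21, 2.38 and 2.32 in RASV12-first cells, so the highest array with 1 vector, RASV12 replicate 2, lay below the lowest with 2. It rose by 3.27 ± 0.55 in shp53-first against shp53 cells (9.64-fold, limma, adjusted p = 0.00115) and by 2.62 ± 0.55 in RASV12-first against RASV12 cells (6.14-fold, adjusted p = 0.00412). Psmb10 read between 2.56 and 3.6 on all arrays.

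Psme1, the alpha subunit of the PA28 activator that opens the proteasome, was highest in shp53-first cells. It read 2.36, 2.47 and 2.49 in shp53, 2.41, 2.62 and 2.59 in RASV12, 2.91, 2.89 and 3.01 in shp53-first, and 2.37, 2.56 and 2.56 in RASV12-first cells. The shp53-first arrays lay above the other 9, whose ranges overlapped. The difference was 0.50 ± 0.11 in shp53-first against shp53 cells (1.41-fold, limma, adjusted p = 0.00728).

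Of the 5 class II genes tested, H2-Ab1 and H2-Eb1 were highest in RASV12 cells. H2-Ab1, the class II beta chain of I-A, read 0.51, -0.89 and 0.52 on the RASV12 arrays. It read -6.12, -5.57 and -5.80 in shp53 cells, the first of these not well above background. The shp53-first arrays read -0.67, -2.96 and -3.20, and the RASV12-first arrays -1.28, -5.05 and -4.83. In both 2-vector groups replicate 1, the array that stood apart, was the highest, and the shp53 arrays lay below all others. H2-Ab1 was higher in RASV12 than in shp53 cells by 5.88 ± 0.97 (58.8-fold, limma, adjusted p = 0.00143), and a second probe gave 6.21. It was lower in RASV12-first than in RASV12 cells by -3.77 ± 0.97 (adjusted p = 0.0118). In shp53-first against shp53 cells it was higher by 3.56 ± 0.97 (adjusted p = 0.0161), and without shp53 replicate 1 by 3.41 (adjusted p = 0.0529). All 3 H2-Ab1 calls ended with normexp, at 1.84, -1.53 and 0.39 (adjusted p = 0.204, 0.188 and 0.785), and with the close pairs averaged, at 5.58, -2.92 and 3.89 (0.0576, 0.198 and 0.113).

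H2-Eb1, the beta chain of I-E, read -4.50, -4.01 and -4.39 in shp53, -2.08, -2.73 and -1.96 in RASV12, -4.60, -3.85 and -4.11 in shp53-first, and -7.17, -4.58 and -4.56 in RASV12-first cells, where the -7.17 was not well above background. The RASV12 arrays lay above the other 9. It was higher in RASV12 than in shp53 cells by 2.04 ± 0.59 (limma, adjusted p = 0.0275) and lower in RASV12-first than in RASV12 cells by -3.18 ± 0.59 (adjusted p = 0.00218). The first call ended without shp53 replicate 1 (1.94, adjusted p = 0.0848) or 3 (2.0, 0.0786) and without RASV12 replicate 1 (1.95, 0.0826) or 3 (1.89, 0.0889). With normexp the H2-Eb1 differences turned to -0.49 and 0.38 (adjusted p = 0.62 and 0.684).

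The I-A alpha chain gene H2-Aa, the partner of H2-Ab1, was not well above background on any of the 12 arrays, and neither was Ciita. Cd74, the invariant chain that escorts class II, was dim, at -4.34, -4.77 and -4.48 in shp53 and -5.90, -6.53 and -5.24 in RASV12 cells. Its shp53-first values were -6.78, -5.79 and -4.94 and its RASV12-first values -5.75, -4.94 and -5.54. It was well above background on all 3 shp53 arrays and on 2 of 3 in each other group, and the shp53 arrays lay above the other 9. Cd74 was lower than in shp53 cells by -1.36 ± 0.45 in RASV12 and by -1.31 ± 0.45 in shp53-first cells (limma, adjusted p = 0.0473 and 0.0428). These Cd74 calls ended in 15 and 16 of 25 alternatives, among them leaving out RASV12 replicate 2 (-1.04, adjusted p = 0.15) or shp53-first replicate 1 (-0.83, adjusted p = 0.123). The macrophage and leukocyte markers were highest in sum on shp53 replicates 1 and 3. On shp53 replicate 2 the sum was 13.4, beside 20.7 on RASV12 replicate 2, and Itgam was the brightest marker on both (2.84 and 4.18). The median of the 15 markers was -1.42 on shp53 replicate 2 and -3.03 on RASV12 replicate 2, with 15 and 13 well above background. In the same comparisons 12 and 13 of 15 were called lower (12.8% and 20.3% of all genes). Cd74, Ptprc, Cx3cr1, C1qa and Aif1 were tested only because they stood well above background on all shp53 arrays. That filter favoured calls lower than in shp53 cells, so these counts cannot be set plainly against all genes. The part of the 15 markers in the Cd74 result was not tested. For H2-Ab1 and H2-Eb1, highest in RASV12 cells, those markers summed to 9.24 to 20.7 on the RASV12 arrays and to 13.4 to 123 on the shp53 arrays. Their medians did not overlap, at -3.75 to -3.03 on the RASV12 arrays and -1.42 to 2.55 on the shp53 arrays. In RASV12-first against RASV12 cells, where H2-Ab1 and H2-Eb1 were lower, 6 of the 15 markers were called lower and 0 higher (21.7% and 17.2% of all genes). The marker medians were -7.86 to -7.29 on the RASV12-first arrays. The part of these markers in the H2-Ab1 and H2-Eb1 results was not tested.

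**Figure D4:**
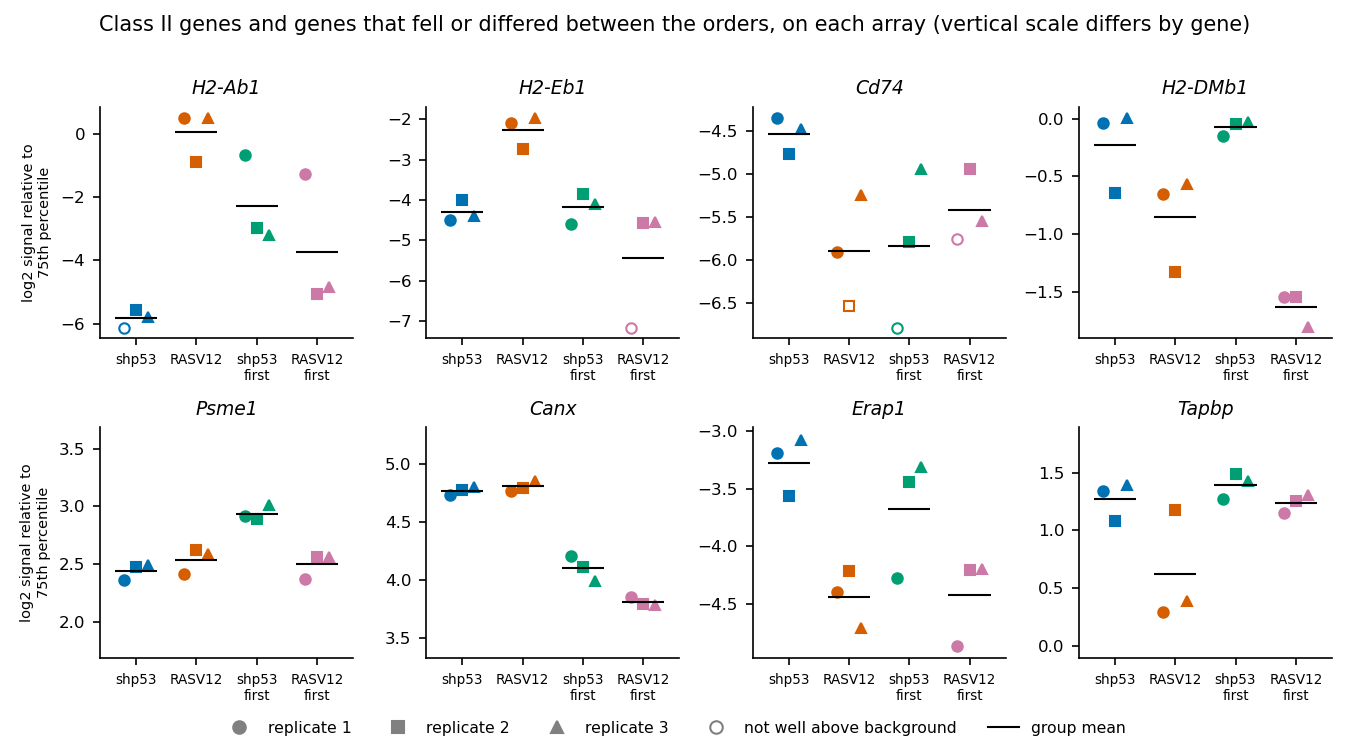
Scaled log2 signal (75th percentile of each array at 0) on the 12 arrays for 4 class II genes and for Psme1, Canx, Erap1 and Tapbp; open symbols were not well above background, black lines are group means, and vertical scales differ by gene. H2-Ab1 and H2-Eb1 peak in RASV12 cells, H2-DMb1 is lowest on the 3 RASV12-first arrays, and Canx is lower on the 6 arrays of the 2-vector groups.

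Nlrc5, the class I transactivator, rose against shp53 cells in all 3 other groups. It read -1.26, -3.43 and -1.21 in shp53, 1.12, 1.46 and 1.03 in RASV12, 2.04, 2.24 and 2.05 in shp53-first, and 3.28, 2.63 and 2.81 in RASV12-first cells. The 4 groups did not overlap. Against shp53 cells it was higher by 3.17 ± 0.49 in RASV12 (9.01-fold, limma, adjusted p = 0.000987), by 4.08 ± 0.49 in shp53-first (16.9-fold, adjusted p = 0.000149) and by 4.87 ± 0.49 in RASV12-first cells (29.3-fold, adjusted p = 3.22e-05). The difference of 0.90 between shp53-first and RASV12 cells was not called. A second, dimmer probe of Nlrc5 gave 0.63, 1.67 and 2.23 in the comparisons with shp53 cells, the same order at smaller size. That probe was not well above background on shp53 replicate 1 and RASV12 replicate 3. On RASV12 replicate 3 it read -6.08, below the shp53 arrays (-5.92, -6.01 and -6.04), so it does not separate RASV12 from shp53 cells. In RASV12-first against RASV12 cells Nlrc5 rose by 1.70 ± 0.49 (adjusted p = 0.0201), a call lost without RASV12 replicate 1 (adjusted p = 0.0583) or 3 (0.0624) and without RASV12-first replicate 1 (0.054).

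Irf1, an interferon-induced factor that acts on class I and immunoproteasome genes, was lowest in RASV12 cells. It read 1.79, 1.87 and 1.83 in shp53, 0.40, 1.32 and 0.41 in RASV12, 2.19, 1.96 and 1.76 in shp53-first, and 1.63, 1.64 and 1.57 in RASV12-first cells. All RASV12 arrays lay below the other 9. Irf1 was lower in RASV12 than in shp53 cells by -1.12 ± 0.23 (limma, adjusted p = 0.0048) and higher than in RASV12 cells by 1.26 ± 0.23 in shp53-first and 0.91 ± 0.23 in RASV12-first cells (adjusted p = 0.00352 and 0.0107). Nlrc5 and Irf1 were called in opposite directions in RASV12 against shp53 cells.

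The order of the vectors was compared directly in RASV12-first against shp53-first cells. H2-DMb1, the beta chain of the H2-DM editor of class II peptides, and Psme1 were lower in RASV12-first cells, and no gene of the 28 was called higher. That is 0 higher and 2 lower of 28, where 7.33% and 8.47% of all genes were called. At an unadjusted limma p under 0.05 the count was 1 higher and 5 lower. Without the 4 arrays that stood apart, an alternative chosen after seeing the data, the count was 8 higher and 9 lower. H2-DMb1 was at -1.63 in that fit. Dropping these arrays also raised the calls in every other comparison, to between 17 and 24 of the 28 genes. Shares of all genes are not given for the unadjusted count or the count without those arrays. Neither count can therefore be set against all genes. H2-DMb1 read -0.04, -0.65 and 0.00 in shp53, -0.65, -1.33 and -0.57 in RASV12, -0.15, -0.05 and -0.03 in shp53-first, and -1.54, -1.54 and -1.80 in RASV12-first cells. The RASV12-first arrays lay below the other 9. The difference between the orders was -1.55 ± 0.23 (2.93-fold, limma, adjusted p = 0.00127), and H2-DMb1 was also lower in RASV12-first cells than in shp53 cells, by -1.40 ± 0.23 (adjusted p = 0.00073), and than in RASV12 cells, by -0.78 ± 0.23 (adjusted p = 0.0214). The last of these ended without RASV12 replicate 1 (-0.68, adjusted p = 0.0794) or 3 (-0.64, 0.0827) and without RASV12-first replicate 3 (-0.69, 0.0748). With normexp these H2-DMb1 differences were -0.79, -0.70 and -0.13 (adjusted p = 0.683, 0.343 and 0.749), none called. H2-DMa, the partner chain, stayed between -3.56 and -2.62 and was called in no comparison. The Psme1 difference between the orders was -0.44 ± 0.11 (1.36-fold, adjusted p = 0.0268), and with normexp -0.89 (0.706). Same-numbered arrays of these groups deviated together. In a fit of the 2 groups with the replicate number as a block, chosen after seeing the data, 2 genes were called higher in RASV12-first cells, H2-Q7 at 0.73 (limma, adjusted p = 0.0283) and Psmb9 at 1.27 (0.0206). In that fit 2 were called lower, H2-DMb1 at -1.55 (0.00686) and Erap1 at -0.75 (0.028), and Psme1 was not called (0.0723). The share of all genes called in that fit is not given here, so its counts cannot be set against all genes. The block in the fit of all 12 arrays kept the H2-DMb1 and Psme1 calls (0.00218 and 0.0284) and added 0.

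Of the 28 genes, 8 had all RASV12-first arrays above all shp53-first arrays and 7 had all below, against 16% and 16.1% of all genes. The 8 were H2-D1, H2-K1, H2-Q4, H2-Q5, H2-Q7, Cd1d1, Nlrc5 and Psmb9, with differences from 0.38 in H2-Q4 to 1.27 in Psmb9, and none was called without the block. The 7 below were H2-DMb1, H2-T24, Psmb8, Psme1, Tapbpl, Irf1 and Canx. The median log2 difference of the 28 genes was 0.08, and that of all genes was 0.00. By role, the medians were 0.50 for the 2 class I chains, 0.41 for the 7 class Ib genes, -0.29 for the 7 transport and loading genes, -0.21 for the 4 immunoproteasome genes and -1.25 for the 5 class II genes. An exact permutation test of 3 arrays against 3 cannot give a two-sided p under 0.1.

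The Psme1 call between the orders ended without shp53-first replicate 2 (adjusted p = 0.0629) or 3 (0.0914) and without RASV12-first replicate 2 (0.0575) or 3 (0.0572), each of which left 1 of the 28 genes called. Without shp53 replicate 2 the count was 5. Averaging the close pair of each group left 0 calls between the orders, with H2-DMb1 at -1.51 (adjusted p = 0.0767). With array median scaling the split was 1 higher and 1 lower.

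Interferon-stimulated genes, whose products limit viruses and guide immune cells, were read as a list of 30, of which 26 were tested. In shp53-first against shp53 cells 13 of the 26 rose and 0 fell (17.3% and 20.3% of all genes), with Ifit2 higher by 1.84 ± 0.20 (limma, adjusted p = 6.86e-05), Iigp1 by 3.53 ± 0.69 (0.00281), Trim21 by 1.89 ± 0.42 (0.00564) and Ifih1 by 2.41 ± 0.58 (0.00913). In RASV12-first against shp53 cells 4 rose and 1 fell (21.7% and 23.8% of all genes). Against RASV12 cells 19 rose and 0 fell in shp53-first (10.2% and 15.1%), and 11 rose and 0 fell in RASV12-first cells (17.2% and 21.7%). RASV12 against shp53 cells had 1 higher and 0 lower (14.3% and 12.8%). Between the orders 2 were lower in RASV12-first cells and 0 higher (8.47% and 7.33% of all genes), namely Oas1a by -4.69 ± 0.87 (adjusted p = 0.00494) and Iigp1 by -3.29 ± 0.69 (0.00909), and 20 of the 26 had all RASV12-first arrays below all shp53-first arrays, which 16.1% of all genes did. The median difference of the list was -0.86 there, while that of the class I and class Ib genes was above 0.

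The summed signal of the 27 interferon-stimulated genes with a probe was 70.2 to 87.8 on the shp53 arrays, 327 to 376 in shp53-first and 212 to 247 in RASV12-first cells. On the RASV12 arrays it was 24.8, 265 and 25.9, replicate 2 standing far above the others. The same array was the highest of its group for H2-K1, H2-D1, H2-Q5, H2-Q7, H2-T23, H2-M3, B2m, Tap1, Psmb8, Psmb9, Nlrc5 and Irf1. The summed class I heavy chains read 30.8, 61.3 and 33.0 on the RASV12 arrays, all below the 127 to 236 of the 2-vector arrays. The part of these interferon-stimulated genes in the class I differences was not tested.

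**Figure D5:**
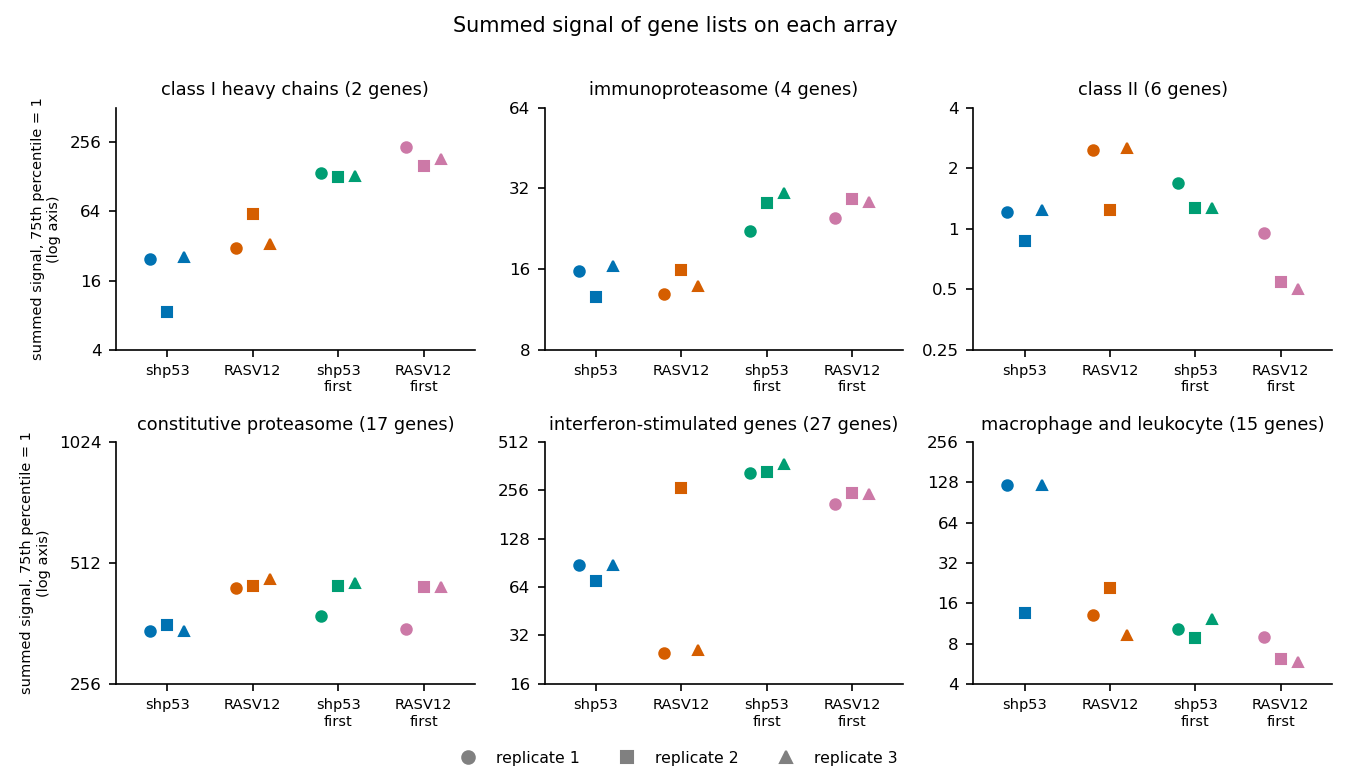
Summed linear signal of 6 gene lists on each array (log axis, the array's 75th percentile is 1), by group; symbols are replicates. The class I heavy chains read 8.44 to 61.3 on the 1-vector and 127 to 236 on the 2-vector arrays, the class II sum is highest on RASV12 replicates 1 and 3, and RASV12 replicate 2 lies far above the other RASV12 arrays for interferon-stimulated genes.

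Interferon signalling genes, are the receptors, kinases and factors upstream of those genes. Of 17 tested, 3 rose and 3 fell in shp53-first against shp53 cells, a share near that of all genes (17.3% and 20.3%), and 2 and 5 in RASV12-first against shp53 cells (21.7% and 23.8%). In shp53-first against RASV12 cells 6 rose and 1 fell (10.2% and 15.1% of all genes), in RASV12-first against RASV12 cells 6 and 5 (17.2% and 21.7%), and in RASV12 against shp53 cells 1 and 2 (14.3% and 12.8%). Between the orders 0 rose and 3 fell (7.33% and 8.47% of all genes), the receptor subunits Ifngr2 by -0.82 ± 0.18 (limma, adjusted p = 0.0105) and Ifnar1 by -0.81 ± 0.23 (0.0383), and Stat3 by -0.68 ± 0.18 (0.0257). Socs1, a feedback inhibitor of this signalling, rose by 1.13 ± 0.14 in shp53-first against shp53 cells (0.000144) and by 1.19 ± 0.14 in RASV12-first against RASV12 cells (0.000118).

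Of 17 genes of the constitutive proteasome, the form found in all cells, 4 rose and 0 fell in shp53-first against shp53 cells (17.3% and 20.3% of all genes), and 9 and 1 in RASV12-first against shp53 cells (21.7% and 23.8%). In RASV12 against shp53 cells 3 rose and 0 fell (14.3% and 12.8% of all genes), and all 17 differences were above 0. The median difference there was 0.34 for the list and 0.05 for all genes. The share of all genes above 0 is not given here, so the 17 cannot be set against it. Against RASV12 cells 0 rose and 3 fell in RASV12-first cells (17.2% and 21.7%), and 0 and 1 in shp53-first cells (10.2% and 15.1%). Between the orders 0 were called by limma (7.33% and 8.47% of all genes), where 1 fell at an unadjusted p under 0.05. Pomp, a proteasome assembly factor, fell by 1.03 ± 0.17 in RASV12-first against RASV12 cells (limma, adjusted p = 0.0011), and Psmb5, the subunit that Psmb8 replaces, fell by 0.48 ± 0.13 (0.0137). The median difference of the list in shp53-first against shp53 cells was 0.33, beside 1.88 for the 4 immunoproteasome genes and 0.03 for all genes.

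Factors of the MHC promoters, 14 tested, had 6 higher and 0 lower both in shp53-first against shp53 cells (17.3% and 20.3% of all genes) and in RASV12-first against RASV12 cells (17.2% and 21.7%). In RASV12-first against shp53 cells 8 were higher and 1 lower (21.7% and 23.8%), in RASV12 against shp53 cells 3 and 0 (14.3% and 12.8%), in shp53-first against RASV12 cells 2 and 1 (10.2% and 15.1%), and between the orders 1 and 0 (7.33% and 8.47%). The NF-kB subunits Relb and Nfkb2 rose by 0.74 ± 0.13 and 0.74 ± 0.15 in shp53-first against shp53 cells (limma, adjusted p = 0.00178 and 0.00323), with the Polycomb subunit Suz12 at 0.85 ± 0.17 (0.00316) and the CCAAT-binding subunit Nfya at 0.66 ± 0.16 (0.00974). Nfyb, its partner, was higher in RASV12-first than in shp53-first cells by 0.50 ± 0.13 (0.0285).

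Other antigen processing genes, 18 of 22 tested, had 2 higher and 7 lower in shp53-first against shp53 cells (17.3% and 20.3% of all genes) and 2 and 4 in RASV12-first against shp53 cells (21.7% and 23.8%). Against RASV12 cells, RASV12-first cells had 0 higher and 5 lower (17.2% and 21.7%), and shp53-first cells 1 and 7 (10.2% and 15.1%). In RASV12 against shp53 cells 1 was higher and 1 lower (14.3% and 12.8%), and likewise between the orders (7.33% and 8.47%). Ctss, the cathepsin that cuts the invariant chain Cd74, was well above background on all arrays of the 1-vector groups and on 0 of 6 arrays of the 2-vector groups. It read 4.12, 0.09 and 4.16 on the shp53 arrays, high and low on the same arrays as the macrophage and leukocyte markers, whose part in it was not tested. Ifi30, the lysosomal thiol reductase of class II processing, fell by 1.06 ± 0.12 in shp53-first against shp53 cells (limma, adjusted p = 0.000123) and was higher in RASV12-first than in shp53-first cells by 0.83 ± 0.12 (0.00146).

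Immune ligands and checkpoints, 15 of 20 tested, had 6 higher and 0 lower in RASV12 against shp53 cells (14.3% and 12.8% of all genes), 5 and 4 in shp53-first against shp53 cells (17.3% and 20.3%), and 4 and 7 in RASV12-first against shp53 cells (21.7% and 23.8%). Against RASV12 cells, RASV12-first cells had 1 higher and 7 lower (17.2% and 21.7%), and shp53-first cells 0 and 5 (10.2% and 15.1%). Between the orders 0 were higher and 3 lower (7.33% and 8.47%). In shp53-first against shp53 cells the costimulatory receptor Cd40 rose by 3.39 ± 0.38 (limma, adjusted p = 9.34e-05) and the NKG2D ligand gene Raet1e by 1.44 ± 0.18 (0.000197), while the costimulatory ligand Cd80 fell by 1.38 ± 0.20 (0.000414). Between the orders the death receptor Fas was lower in RASV12-first cells by -1.45 ± 0.20 (0.000839), followed by Cd47, the signal against phagocytosis, by -0.89 ± 0.23 (0.0259) and the NKG2D ligand gene H60b by -2.44 ± 0.72 (0.0451), which was well above background on 1 of 3 RASV12-first arrays.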

How the data were processed

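Per the file headers, Agilent Feature Extraction made the deposited intensity of each spot, already corrected for background but not scaled between arrays, and gave median pixel intensities of spot and local background. Flags of 0 or 1 for background, outliers and saturation are another deposited value. The headers name version 11.5.1.1 and the submitters' processing notes 10.7.3.1. RNA input was 100 ng, per the labels' protocols. A further deposited table gives log2 values of 25916 probes, and 99.8% of them lay within 0.05 of values rebuilt from the arrays (each array's 75th percentile and the shp53 median subtracted).

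Here 1717 flagged spot values (0.333%) were left out, log2 intensity minus the array's 75th percentile over non-control spots was taken, and spots of a probe were averaged. Kept were probes that stood well above background throughout at least 1 group (3 of 3 arrays), and the brightest kept probe stood for a gene, named through RefSeq. Coordinates are those of the RefSeq build, the arrays' headers naming mm9. All 12 arrays were fitted in limma 3.58.1 in R 4.3.3, 1 mean per group. Calls were made at adjusted p under 0.05 (Benjamini-Hochberg, over all genes of a comparison). The script was checked on simulated data. The number of arrays limits the precision. Each slide held 1 array per group and had the replicate's number. Deviations of same-numbered arrays from their group means, over all genes tested, correlated at 0.60, 0.45 and 0.32 between shp53-first and RASV12-first cells, so the numbers were taken to pair those arrays, and were not all over 0.1 for any other 2 groups (-0.34 to 0.26). Values per array are given for genes called between the orders or among the 3 highest and 3 lowest called differences of another comparison, and lists show up to 4 genes with the smallest adjusted p. Genes named beyond that, such as Ctss and Socs1, were chosen after their values were seen. The genes and lists were chosen with earlier results of these data known.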

Additional observations from a re-analysis of the deposited data

How the results depend on the processing

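The counts of called genes were compared with those under 28 alternatives, and each single call was run under 25 or 26 of them. Of 79 calls, 19 were kept in each of these, among them 4 of the 5 H2-Q5 calls, the H2-K1, H2-D1, H2-Q7 and Nlrc5 calls of both 2-vector groups against shp53 cells, and Canx, Psmb9 and Tap1 in RASV12-first against RASV12 cells. With the comparisons taken as A to F, namely RASV12 against shp53, shp53-first against shp53, RASV12-first against RASV12, RASV12-first against shp53, shp53-first against RASV12 and RASV12-first against shp53-first, the counts were 11, 16, 17, 18, 15 and 2. Normexp background correction (offset 50) gave 1, 6, 6, 6, 3 and 0 and ended 57 calls. Normexp with extreme local backgrounds replaced, chosen after seeing the data, gave 9, 14, 17, 15, 13 and 1 and ended 10 calls. Extreme were 75 local backgrounds over 5 times the median of their array. Averaging the closest pair, chosen after seeing the data, gave 2, 9, 6, 12, 2 and 0 and ended 48 calls. Leaving out the 4 arrays that stand apart, also chosen after seeing the data, gave 17 in A, 24 in E and 17 in F, with p-values that measure the spread within close pairs. An adjusted p under 0.01 gave 5, 10, 6 and 1 in A, C, E and F. A limit of 2-fold and no filter on dim probes each gave 1 in F. Leaving out single arrays gave 7 to 11, 13 to 16, 12 to 19, 15 to 18, 7 to 18 and 1 to 5. With normexp the values for RASV12-first against shp53-first cells reversed for Erap1 (0.52), H2-Eb1 (0.68), H2-Q5 (-0.0022) and H2-T24 (0.48), those of H2-Eb1 against RASV12 (0.38) and in RASV12 against shp53 (-0.49), and that of Tapbpl against RASV12 (0.30). With extreme local backgrounds replaced, none of these normexp values reversed. The only reversal in that setting was Cd74 in shp53-first against shp53 cells, at 0.092. The cause of the reversals was not tested further. Array median scaling moved the median of all genes by 0.12, 0.11, 0.19, 0.36, -0.04 and 0.25.

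With the replicate number as a block, which is also the slide, the counts were 9, 16, 16, 16, 15 and 2. It ended the calls of Tapbp in RASV12 against shp53 and RASV12-first against RASV12, H2-T23 in shp53-first against RASV12, and Tapbpl in RASV12-first against shp53 (adjusted p = 0.0553, 0.0507, 0.0555 and 0.0543), beside those given above. In fits of 2 groups with the replicate block, chosen after seeing the data, the counts were 11 in C, 6 in E and 4 in F. The calls that the last of these changed are given with the order of the vectors.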
